A study of Homo sapiens with 21 samples.

Results

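The keratins are the intermediate filament proteins of epithelial cells. They were taken here as the protein-coding genes of the count table whose name is KRT with digits and at most 1 letter, which leaves out the keratin-associated proteins. The rule gave 55 of 58735 genes. Of these, 29 encode type I (acidic) and 26 encode type II (basic to neutral) keratins. The type I genes other than KRT18 lie together on human chromosome 17, and KRT18 and all type II genes lie on chromosome 12, with 28 and 27 members.

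Keratins form filaments only as pairs, 1 type I chain with 1 type II chain, so that epithelia express them in matched sets. KRT8 with KRT18 is the pair of simple epithelia and the only one of normal hepatocytes, whereas KRT7 and KRT19 are used by the cells that line bile ducts. Keratins of stratified epithelia (such as KRT4 of mucosa and KRT10 of epidermis), stress-induced keratins (such as KRT17) and hair keratins (KRT81, KRT83, KRT86) belong to other tissues. Keratin filaments are anchored to desmosomes at contacts between cells and to hemidesmosomes at the basement membrane.

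Cells labelled HepG2, an established line derived from a human liver tumour, had been kept for 24 h in serum-free DMEM with coumarin, a benzopyrone of plants, at 0.001, 0.01, 0.1, 1, 10 or 100 µM, or with no coumarin (0 µM). Each of the 7 groups had 3 libraries that the design text calls biological replicates, and poly(dT)-selected RNA was sequenced. All groups, the untreated one included, were without serum for those hours. The labels name 1 cell line, and how its identity was checked is not given in the sources used here.

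Gene counts totalled 26984563 to 43375429 per library. The defining transcripts of hepatocytes were absent: of 8 fixed markers none reached 1 CPM (counts scaled to a common library size with TMM factors), ALB, TTR, APOC3 and FGB had 0 counts in all 21 libraries, and the 8 together summed to 0 to 0.0261 CPM at 100 µM and 0.0323 to 0.0657 CPM at 0 µM. Of 5 ductal markers only KRT7 reached 1 CPM, and of 6 stratified markers none did. Of 7 fibroblast markers, 5 reached it: VIM, COL3A1, COL1A1, DCN and PDGFRB. PDGFRA had 0 counts, and COL1A2 had 3 counts over all 21 libraries together. By mean over the 21 libraries, COL3A1 was the highest of the 7 with 1211 CPM, and DCN had 1.53 CPM. The 7 markers summed to 1381 to 1428 CPM at 100 µM and 1587 to 1675 CPM at 0 µM. Their part in the keratin results was not tested. ERG was the only 1 of 4 endothelial markers at 1 CPM, and CSF1R the only 1 of 5 leukocyte markers. The 3 untreated libraries were not alike. The library total that the deposited FPKM imply is larger than the sum of the gene counts, and the part beyond that sum, called here the share beyond counted genes, was 3.91%, 8.03% and 8.17% in untreated replicates 1, 2 and 3. Those of replicates 2 and 3 are the largest of the 21 libraries. Comparisons with 0 µM are therefore also given with untreated replicate 1 alone, and with the 12 libraries at 0.001 to 1 µM in place of the untreated ones.

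Few keratin genes were expressed, and KRT8, KRT18 and KRT7 led them. Of the 55 members, 22 had 0 counts in all 21 libraries, 22 more had counts but too few to be tested, and 11 passed the filter on low counts (edgeR filterByExpr on the 7 groups). Where no read was counted, as many as 3 counts remain possible, which is 0.111 CPM in the smallest library and covers counting error only. The 22 untested members with counts held 1 to 147 in all libraries together and no more than 13 in any library, and 17 of them held at most 10. The highest were KRT16 (147 counts over the 21 libraries), KRT15 (82) and KRT14 (80), type I keratins of stratified epithelium, and KRT19 (36) and KRT20 (33), type I keratins of ductal and intestinal epithelium.

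By class, all 7 simple epithelial keratins had counts and 4 of them were tested, all at 1 CPM or more: KRT8, KRT18, KRT7 and KRT80. Of 21 keratins of stratified epithelium and stress, 4 were tested (KRT17, KRT10, KRT4 and KRT12), 3 at 1 CPM or more, and 7 had 0 counts throughout. Of 26 keratins of hair and hair follicle, 3 were tested (KRT81, KRT83 and KRT86), each at 1 CPM or more, and 14 had 0 counts throughout. KRT222, which belongs to none of these classes, had 0 counts.

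Levels of different genes were compared per length, as the deposited FPKM (scaled by the authors by gene length and library total). In untreated cells KRT18 had 362 ± 32.6 FPKM (SD, n = 3, as for the other genes of this paragraph) and KRT8, its type II partner, had 335 ± 19.1, and their libraries overlapped. KRT7, the ductal type II keratin, followed with 177 ± 4.34. KRT17, a type I keratin of wounded and basal epithelium, had 39.1 ± 2.25, and KRT80, a type II keratin found near desmosomes, had 36.2 ± 0.963. The lowest library of KRT17 (37.6 FPKM) was just above the highest of KRT80 (37.3). KRT10, the type I keratin of upper epidermal layers, had 22.1 ± 1.46. The type II hair keratins KRT81 and KRT86 had 5.52 ± 0.225 and 4.90 ± 0.218, far below KRT10 when set against the spread between libraries. KRT83, another hair keratin, had 0.723 ± 0.147, KRT4 0.338 ± 0.0864 and KRT12, the type I keratin of cornea, 0.0983 ± 0.0101. Among protein-coding genes, ordered by mean FPKM over all libraries, KRT18 stood at place 73, KRT8 at 74, KRT7 at 155, KRT17 at 819, KRT80 at 1096 and KRT10 at 1596. The length used for KRT8, 6881 bases, is that of the exons of all its annotated transcripts together, and the FPKM is too low where only shorter ones are made.

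**Figure D1:**
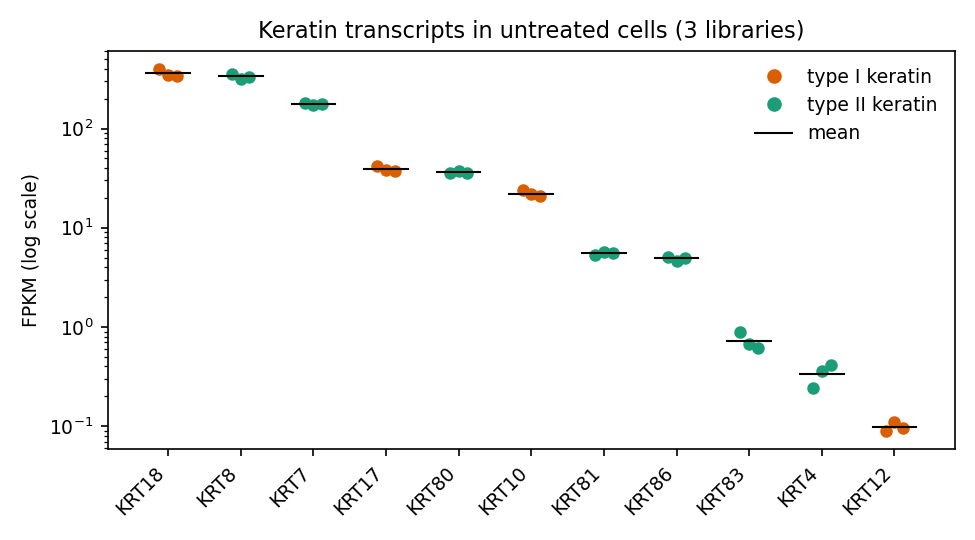
FPKM (log scale) of the 11 tested keratins in the 3 untreated libraries, with the mean as a line and colours for the type of chain. KRT18, KRT8 and KRT7 lie above 100 FPKM, KRT17, KRT80 and KRT10 between 20 and 50, and KRT83, KRT4 and KRT12 below 1.

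Summed over each type, type II keratins had 559 ± 22.6 FPKM in untreated cells and type I keratins had 423 ± 36.4 (SD, n = 3). The tested type II genes are KRT8, KRT7, KRT80, KRT86, KRT81, KRT83 and KRT4, and the tested type I genes are KRT18, KRT17, KRT10 and KRT12.

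Sequences shared with other genes limit which counts can be assigned to a keratin, and KRT81 and KRT86 share most. KRT81 (ENSG00000205426, minus strand, chr12:52285913-52291534, GRCh38) lies within the span of KRT86 (ENSG00000170442, plus strand, chr12:52249300-52309163), with no exonic base in common. Their coding sequences hold an identical run of 605 bases, spread over 4 exon blocks in each gene. The second of those blocks, 209 bases long, is printed because it is a stretch from which a read cannot be assigned to either gene. It lies at chr12:52290078-52290286 on the minus strand in KRT81 and at chr12:52303100-52303308 on the plus strand in KRT86.
KRT81 and KRT86: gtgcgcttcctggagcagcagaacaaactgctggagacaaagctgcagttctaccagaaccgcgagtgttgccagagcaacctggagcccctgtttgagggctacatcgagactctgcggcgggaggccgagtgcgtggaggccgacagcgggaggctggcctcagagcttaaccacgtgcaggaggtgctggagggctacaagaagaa
Of all 50-base words in annotated transcripts (GENCODE 29), 43.7% of those of KRT81 and 37.5% of those of KRT86 also occur in another gene. The share was 16.1% for KRT8, 12.8% for KRT83, 11.8% for KRT18, 9.02% for KRT17, 5.70% for KRT7, 3.77% for KRT12, 0.420% for KRT10, 0.364% for KRT80 and 0 for KRT4. For KRT8 and KRT18 the other genes include many of their pseudogenes. The counts of KRT81 and KRT86 are accordingly uncertain at the level of the single gene.

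KRT8 (ENSG00000170421, minus strand, chr12:52897187-52949954) and KRT18 (ENSG00000111057, plus strand, chr12:52948871-52952901) are neighbours at 1 end of the chromosome 12 cluster and overlap on opposite strands. They share 525 exonic bases, 7.63% of those of KRT8 and 16.3% of those of KRT18. The strand setting of the counting is not given in the sources used here, so reads from that stretch cannot be told apart between them. KRT7 (ENSG00000135480, plus strand, chr12:52232520-52252186) shares 282 exonic bases (6.89%) with its antisense gene KRT7-AS, which had 7.90 ± 0.964 CPM at 100 µM and 8.98 ± 1.26 CPM at 0 µM (SD, n = 3; edgeR adjusted p = 0.262).

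Of the 11 tested keratins, 4 had an entry among the RefSeq promoters (GRCh38.p14), and of all 55 members 34 had one. The windows of KRT8, which fell at 100 µM, and KRT10, which did not, are printed as the 250 bases before the RefSeq start, at chr12:52926470-52926719 and chr17:40822615-40822864, both on the minus strand, with the TATAAA motif in capitals.
KRT8: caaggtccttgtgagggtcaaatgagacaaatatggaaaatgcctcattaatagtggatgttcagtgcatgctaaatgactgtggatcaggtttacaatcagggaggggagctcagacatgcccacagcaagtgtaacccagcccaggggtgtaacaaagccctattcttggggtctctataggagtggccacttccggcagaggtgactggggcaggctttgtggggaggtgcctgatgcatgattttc
KRT10: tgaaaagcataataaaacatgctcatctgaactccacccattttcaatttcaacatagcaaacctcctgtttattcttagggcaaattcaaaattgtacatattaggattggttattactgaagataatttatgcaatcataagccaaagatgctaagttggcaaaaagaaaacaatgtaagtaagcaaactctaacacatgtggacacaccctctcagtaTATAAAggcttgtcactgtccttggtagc
The KRT8 start is that of 1 of its 5 coding GENCODE transcripts, within 100 bases, and the KRT10 start that of its only 1. For KRT12 the start is that of 2 of 2 coding transcripts, and for KRT4 that of 0 of 1. The KRT4 window therefore does not lie directly before its annotated start. Which starts are used in these cells was not tested. Motifs were searched on both strands. TATAAA was found in KRT10 and not in KRT8, KRT4 or KRT12, in 20 of the 34 members with an entry, and in 11.1% of the 27305 windows of all genes. AP-1 (TGANTCA, in 6.60% of all windows) was in none of the 34. The GC box (GGGCGG, 42.3%), the amino acid response element (TGATGNAA, 3.19%) and the xenobiotic response core (GCGTG, 31.9%) were in 4, 3 and 4 of the 34 and in none of the 4 tested members with an entry. A match is a description of letters and not a site.

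The comparison of 100 µM with 0 µM asked which keratins differ between the highest dose and untreated cells. The main simple epithelial pair fell: KRT18 was 1.49-fold and KRT8 1.35-fold lower, KRT80 was 1.57-fold lower, and KRT7, the third abundant keratin, did not pass the test at a fold of 1.00. Of the 11 tested keratins 5 fell (KRT18, KRT8, KRT80, KRT4 and KRT81) and 0 rose, while over all 16699 tested genes 12.9% fell, 14.4% rose and 27.3% were called in either direction (a call is an adjusted p under 0.05 in the edgeR quasi-likelihood test). At an unadjusted p under 0.05 edgeR gave 1 keratin as higher, KRT10, which DESeq2 called and limma did not. The median log2 change of the 11 was -0.34, against -0.008 over all tested genes. Fewer cells that make a transcript and less transcript per cell cannot be told apart in these bulk libraries.

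KRT18, the type I chain of the pair, had 807, 832 and 804 CPM at 100 µM, against 1337, 1158 and 1147 CPM at 0 µM. All 3 treated libraries were below all 3 untreated ones, and untreated replicate 1 was the highest of these. The log2 change was -0.58 (SE 0.045; edgeR adjusted p = 3.22e-13).

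KRT8, the type II chain, had 1846, 1764 and 1754 CPM at 100 µM, against 2547, 2288 and 2382 CPM at 0 µM. The groups did not overlap here either, and the log2 change was -0.43 (SE 0.040; edgeR adjusted p = 4.88e-11). KRT8 had 2.20 ± 0.0862 times the counts of KRT18 at 100 µM and 1.99 ± 0.0902 times at 0 µM (SD, n = 3). These 2 groups did not overlap, with 2.12 to 2.29 at 100 µM and 1.90 to 2.08 at 0 µM. That ratio was 2.17 ± 0.104 at 10 µM and 1.98 to 2.12 as a group mean at 0.001 to 1 µM, so the dose groups overlapped. That the changes of KRT8 and KRT18 differ was not tested.

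KRT80 (ENSG00000167767, minus strand, chr12:52168996-52192000), a type II keratin at the other end of the chromosome 12 cluster, had 97.2, 110.1 and 107 CPM at 100 µM, against 162, 169.7 and 162 CPM at 0 µM. Every treated library was below every untreated one. The log2 change was -0.65 (SE 0.046; edgeR adjusted p = 2.56e-14). KRT18, KRT8 and KRT80 kept their call in all 18 alternatives run for this comparison, and with untreated replicate 1 alone their log2 changes were -0.72, -0.51 and -0.63.

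KRT4 (ENSG00000170477, minus strand, chr12:52806549-52814551), the type II keratin of mucosal surface layers, had 0.558, 0.611 and 0.209 CPM at 100 µM, against 0.835, 1.25 and 1.42 CPM at 0 µM. The groups did not overlap, at a level near the floor, and the log2 change of -1.40 (SE 0.31; edgeR adjusted p = 0.000593) was the largest in size of the 11. It lost its call with untreated replicate 1 alone (log2 change -0.92, edgeR adjusted p = 0.192).

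KRT81 had 8.05, 8.97 and 9.34 CPM at 100 µM, against 10.6, 11.6 and 11.2 CPM at 0 µM. The groups did not overlap, and the log2 change was -0.34 (SE 0.083; edgeR adjusted p = 0.00206). The call ended with untreated replicate 1 alone (-0.27, edgeR adjusted p = 0.148) and with the share beyond counted genes as a covariate (-0.29, edgeR adjusted p = 0.0632). KRT86, with which KRT81 shares its longest coding run, had 13.3, 10.7 and 12.3 CPM at 100 µM, against 12.7, 11.7 and 12.4 CPM at 0 µM, and overlapped (log2 change -0.01, SE 0.092). That the changes of KRT81 and KRT86 differ was not tested. Against 0.001 to 1 µM the log2 change of KRT81 at 100 µM was -0.05 (SE 0.067; edgeR adjusted p = 0.632). At each lower dose its libraries were also all below the untreated ones.

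**Figure D2:**
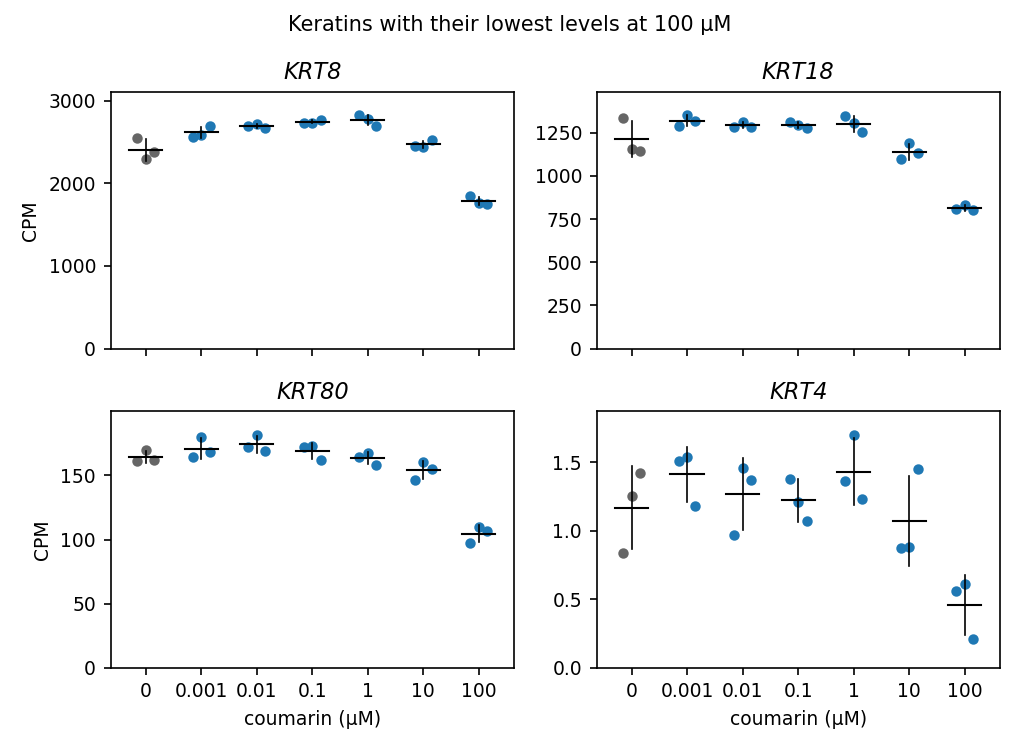
CPM of KRT8, KRT18, KRT80 and KRT4 in the 21 libraries by coumarin concentration in µM (points: libraries, grey at 0 µM; line: group mean; bar: 1 SD, n = 3). The 3 libraries at 100 µM lie below all others for each of the 4 genes, and those of KRT18 lie between 804 and 832 CPM.

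KRT7 had 748, 767 and 754 CPM at 100 µM, against 771, 738 and 754 CPM at 0 µM. The ranges lay within each other, and the log2 change was 0.00 (SE 0.039; edgeR adjusted p = 0.961). Relative to KRT7 within the same libraries, KRT18 had 1.08 ± 0.00577 times its counts at 100 µM and 1.61 ± 0.110 times at 0 µM, and KRT8 had 2.37 ± 0.0907 times at 100 µM and 3.19 ± 0.103 times at 0 µM (SD, n = 3). Neither ratio depends on the scaling of the libraries, and in neither did the groups overlap.

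KRT17 (ENSG00000128422, minus strand, chr17:41619441-41624842) had 129, 128 and 129 CPM at 100 µM, against 136, 124 and 123 CPM at 0 µM. The treated libraries lay inside the untreated range, with a log2 change of 0.01 (SE 0.047; edgeR adjusted p = 0.922). KRT17 counts were 0.158 ± 0.00346 of those of KRT18, the more abundant type I chain, at 100 µM and 0.105 ± 0.00289 at 0 µM (SD, n = 3).

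KRT10 (ENSG00000186395, minus strand, chr17:40818117-40822595) had 64.7, 57.7 and 57.0 CPM at 100 µM, against 53.0, 48.6 and 46.9 CPM at 0 µM. All 3 treated libraries were above the untreated ones, but the log2 change of 0.27 (SE 0.11) missed the threshold (edgeR adjusted p = 0.0735). It passed in a fit of only these 6 libraries (edgeR adjusted p = 0.000391) and with DESeq2 (adjusted p = 0.0161). With untreated replicate 1 alone the log2 change of KRT10 was 0.17. At 0.001, 0.01, 0.1, 1 and 10 µM it was 0.16, 0.26, 0.32, 0.19 and 0.14 against 0 µM, without a call in the main fit. Against 0.001 to 1 µM the change of KRT10 at 100 µM was 0.04 (SE 0.083; edgeR adjusted p = 0.778). KRT83 overlapped, with 2.27, 1.12 and 1.33 CPM at 100 µM, against 1.74, 1.31 and 1.19 CPM at 0 µM. KRT12 had 0.0697, 0.102 and 0.235 CPM at 100 µM, against 0.267, 0.329 and 0.290 CPM at 0 µM, without overlap, and did not pass (log2 change -1.02, SE 0.52; edgeR adjusted p = 0.152). The highest count of KRT12 in any library was 13, so smaller changes were not detectable at this depth.

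**Figure D3:**
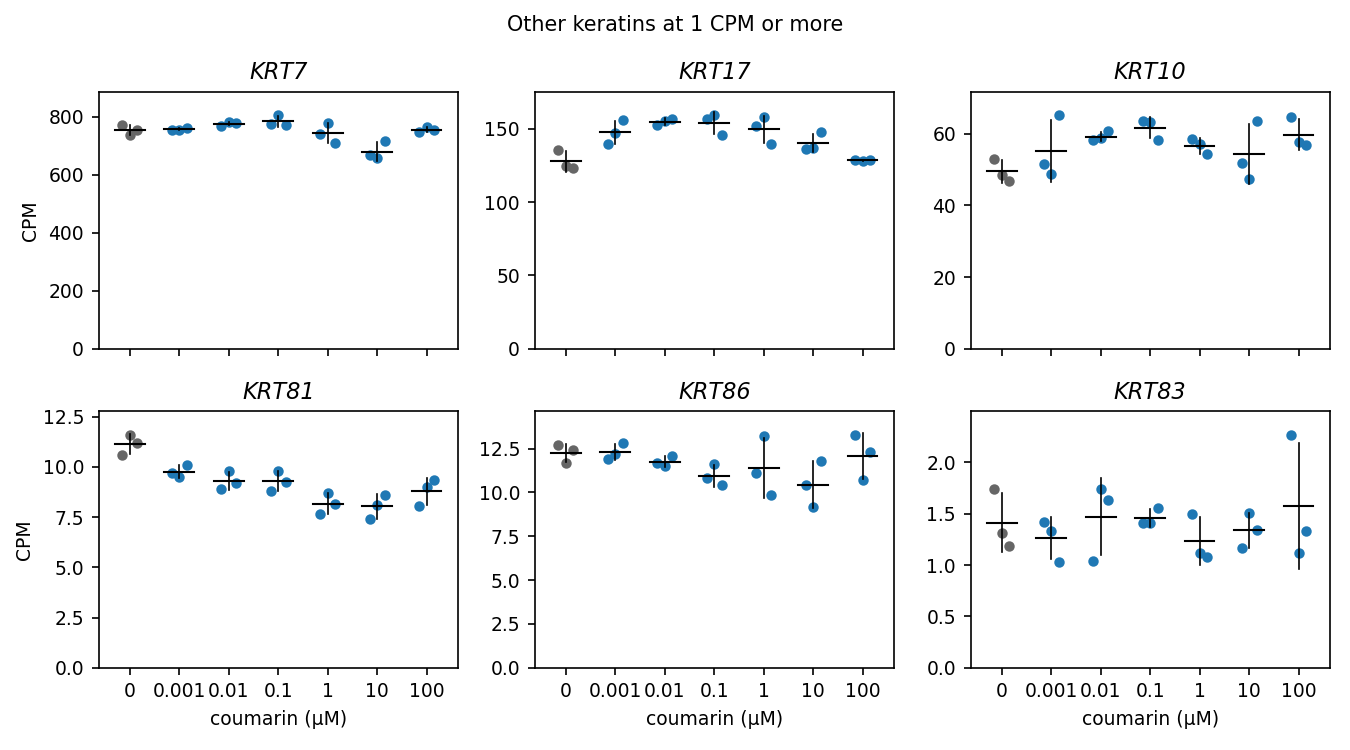
CPM of KRT7, KRT17, KRT10, KRT81, KRT86 and KRT83 in the 21 libraries by coumarin concentration in µM (points: libraries, grey at 0 µM; line: group mean; bar: 1 SD, n = 3). KRT7 is lowest at 10 µM, KRT17 is higher at 0.001 to 1 µM than at 0 or 100 µM, and KRT81 is highest at 0 µM.

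Taken as a family, the keratins summed to 3675 ± 43.7 CPM at 100 µM and 4743 ± 255 CPM at 0 µM (SD, n = 3), with every treated library below every untreated one. Type I keratins summed to 310 ± 4.53 FPKM at 100 µM and 423 ± 36.4 FPKM at 0 µM, and type II keratins to 461 ± 5.80 FPKM at 100 µM and 559 ± 22.6 FPKM at 0 µM. The ratio of type II to type I was 1.49 ± 0.0153 at 100 µM and 1.33 ± 0.0651 at 0 µM, and its libraries lay between 1.47 and 1.50 at 100 µM and 1.26 to 1.39 at 0 µM. Group means of that ratio were 1.27 to 1.34 at 0.001 to 10 µM. Both sums were lower at the highest dose, type I relatively more so. KRT18 made up most of the type I sum, with 242, 249 and 240 FPKM at 100 µM. The type II sum there held KRT8, with 259, 247 and 245 FPKM. It also held KRT7, which did not pass the test, with 176, 180 and 177 FPKM.

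Set against the 12 libraries at 0.001 to 1 µM, 100 µM gave a similar picture without use of the untreated libraries. Again 5 of 11 keratins fell and 0 rose: KRT18, KRT8, KRT80, KRT4 and, in place of KRT81, KRT17. At an unadjusted p under 0.05 edgeR, DESeq2 and limma gave 0 keratins as higher. Over all 16699 genes 16.5% fell, 16.6% rose and 33.1% were called in either direction. Both comparisons share the 100 µM libraries and are not independent of each other. KRT18 ranged from 804 to 832 CPM at 100 µM, against 1254 to 1351 CPM with a median of 1304 in the 12 low-dose libraries (log2 change -0.68, SE 0.037; edgeR adjusted p = 4.14e-18). KRT8 ranged from 1754 to 1846 CPM at 100 µM, against 2564 to 2821 CPM with a median of 2706 (log2 change -0.60, SE 0.033; edgeR adjusted p = 5.66e-18). KRT80 ranged from 97.2 to 110.1 CPM at 100 µM, against 158 to 182 CPM with a median of 169 (log2 change -0.69, SE 0.038). None of these 3 genes overlapped between the groups. KRT4 ranged from 0.209 to 0.611 CPM at 100 µM, against 0.966 to 1.70 CPM (log2 change -1.59, SE 0.25; edgeR adjusted p = 3.91e-06). KRT17 ranged from 128 to 129 CPM at 100 µM, against 139.8 to 159 CPM, and was below all 12 (log2 change -0.24, SE 0.038; edgeR adjusted p = 3.40e-06). KRT7 again did not pass, with a log2 change of -0.02 (SE 0.031). All 5 calls held in each of the 26 alternatives run for this comparison.

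At 10 µM the changes were small. Against 0 µM 2 keratins fell, KRT7 and KRT81, and 0 rose, while 0.874% of all genes fell, 1.74% rose and 2.62% were called in either direction. At an unadjusted p under 0.05 edgeR, DESeq2 and limma each gave 1 keratin as higher, KRT17. KRT7 had 668, 656 and 716 CPM at 10 µM, against 771, 738 and 754 CPM at 0 µM. The treated libraries were all lower (log2 change -0.15, SE 0.039; edgeR adjusted p = 0.0279), but the call ended in 11 of 18 alternatives, among them those without untreated replicate 1 or 3 and those without replicate 1 or 2 at 10 µM, and its adjusted p ranged from 0.0014 to 0.147. KRT81 had 7.40, 8.08 and 8.61 CPM at 10 µM, against 10.6, 11.6 and 11.2 CPM at 0 µM, again all lower (log2 change -0.46, SE 0.084; edgeR adjusted p = 0.00111). It ended with untreated replicate 1 alone (edgeR adjusted p = 0.154).

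Against 0.001 to 1 µM, 4 keratins fell at 10 µM, KRT18, KRT7, KRT8 and KRT80, and 0 rose, with 1.90% of all genes lower, 0.725% higher and 2.62% called in either direction. No keratin was higher here at an unadjusted p under 0.05 by edgeR, DESeq2 or limma. KRT18 had 1098, 1191 and 1130 CPM at 10 µM, against 1254 to 1351 CPM in the 12 low-dose libraries, and did not overlap with them (log2 change -0.19, SE 0.036; edgeR adjusted p = 0.00102). KRT8 had 2448, 2440 and 2522 CPM at 10 µM, against 2564 to 2821 CPM, without overlap (log2 change -0.13, SE 0.032; edgeR adjusted p = 0.0173). KRT7 fell by 0.17 on the log2 scale (SE 0.031; edgeR adjusted p = 0.000877) and KRT80 by 0.14 (SE 0.036; edgeR adjusted p = 0.0297), both with overlap. The calls of KRT18 and KRT7 held in all 26 alternatives. KRT8 lost its call in 4, among them those without replicate 1 or 2 at 10 µM, and KRT80 in 5, among them those without replicate 1 at 10 µM or replicate 2 at 1 µM.

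Below 10 µM the keratins that passed against 0 µM were KRT17, KRT8 and KRT81. KRT17 rose at each of the 4 low doses, by 0.21, 0.28, 0.27 and 0.23 on the log2 scale at 0.001, 0.01, 0.1 and 1 µM (SE 0.047 each; edgeR adjusted p = 0.0125, 2.00e-04, 2.81e-04 and 0.00519). KRT8 rose at 0.01, 0.1 and 1 µM, by 0.16, 0.19 and 0.20 (SE 0.040 each). KRT81 fell at 1 µM by 0.44 (SE 0.084; edgeR adjusted p = 0.00281), a call that ended with DESeq2. That made 1, 2, 2 and 3 keratins at the 4 doses in order, where 1.53%, 5.86%, 6.45% and 2.01% of all genes were called in either direction. Of all genes 1.34%, 4.77%, 5.02% and 1.57% rose at these doses, and 0.192%, 1.09%, 1.43% and 0.431% fell. These comparisons share the 3 untreated libraries.

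The 12 low-dose libraries of KRT17 lay between 139.8 and 159 CPM, against 136, 124 and 123 CPM at 0 µM, and all were above the untreated ones, of which replicate 1 was the highest. The KRT8 libraries at these doses lay between 2564 and 2821 CPM, against 2547, 2288 and 2382 CPM at 0 µM, and again all were above, with replicate 1 the highest of the untreated. With untreated replicate 1 alone no keratin passed at any of the 4 low doses (edgeR adjusted p = 0.548, 0.128, 0.191 and 0.555 for KRT17), and the same held with the share beyond counted genes as a covariate. Calls over all genes became fewer there too: the 256, 978, 1077 and 335 genes at the 4 doses became 119, 302, 233 and 31 with untreated replicate 1 alone, and 95, 38, 11 and 11 with the covariate. The log2 changes of KRT17 at these doses were 0.12 to 0.20 with untreated replicate 1 alone and 0.11 to 0.15 with the covariate. Those of KRT8 were 0.04 to 0.12 and 0.07 to 0.11. The share had a group mean of 6.7% at 0 µM and 2.51% to 4.39% at the 4 low doses. Because it differs between the groups compared, a call that ends with the covariate is not evidence of no change. The part of the untreated libraries' differences in these low-dose values was not tested further. The call of KRT17 at 0.001 µM also ended without untreated replicate 2 or 3 or without replicate 3 at 0.001 µM, and at 1 µM without untreated replicate 3 or replicate 2 at 1 µM. That of KRT8 at 0.01 and 1 µM ended without untreated replicate 2 or 3, and also without replicate 2 at 0.01 µM and replicate 1 at 1 µM.

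**Figure D4:**
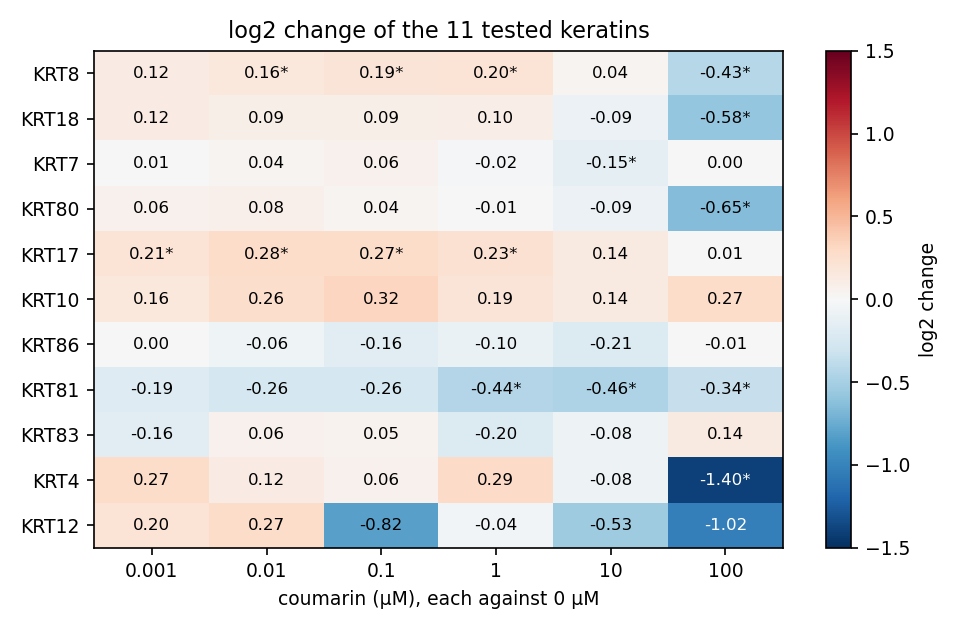
Log2 change of the 11 tested keratins at each coumarin concentration (µM) against 0 µM, as numbers and colours, with an asterisk where the edgeR adjusted p is under 0.05. KRT8, KRT18, KRT80 and KRT4 have their lowest value at 100 µM (-0.43, -0.58, -0.65 and -1.40), and KRT7 is at 0.00 there.

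In the test of all 7 groups at once, 7 of 11 keratins passed (KRT18, KRT8, KRT80, KRT17, KRT4, KRT7 and KRT81), and 30.0% of all genes did. All 7 kept the call in each of 30 alternatives. On a slope over log10 dose in the 18 treated libraries, 6 keratins fell with dose and 0 rose, while 11.5% of 16522 genes fell, 10.0% rose and 21.5% were called in either direction. No keratin had a positive slope at an unadjusted p under 0.05 by edgeR, DESeq2 or limma. KRT80 fell by 0.12 log2 units per 10-fold dose (SE 0.024; edgeR adjusted p = 0.00305), KRT18 by 0.11 (SE 0.023), KRT8 by 0.09 (SE 0.024), KRT4 by 0.20 (SE 0.062), KRT17 by 0.04 (SE 0.010) and KRT81 by 0.04 (SE 0.016). With the 3 libraries at 100 µM left out, 3 passed (KRT18, KRT80 and KRT81), the slope of KRT18 being -0.04. In that fit 432 of 16361 genes were called in either direction. The slope of KRT81 lost its call in 15 of 29 alternatives (highest edgeR adjusted p = 0.101), among them the one with no filter and those without any 1 library at 0.001, 0.1 or 10 µM, replicate 2 or 3 at 0.01 µM, replicate 3 at 1 µM or replicate 1 at 100 µM. The slope of KRT8 and that of KRT4 each lost the call when any of the 3 libraries at 100 µM was left out. Group means of KRT18 were 1294 to 1319 CPM at 0.001 to 1 µM, 1139.8 CPM at 10 µM and 814 CPM at 100 µM, so most of its decline lay in the last step.

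Transcripts of keratin pseudogenes, which can take reads of their parents, were scarce. The 50 KRT8 pseudogenes summed to 10.3 ± 0.302 CPM at 100 µM and 11.3 ± 0.263 CPM at 0 µM (SD, n = 3). Over all 21 libraries their sum ranged from 9.48 to 20.8 CPM, so it was higher in some libraries at other doses. The 67 KRT18 pseudogenes summed to 0.788 ± 0.0588 CPM at 100 µM and 1.02 ± 0.276 CPM at 0 µM. The 8 KRT17 pseudogenes summed to 0.201 ± 0.0412 CPM at 100 µM and 0.426 ± 0.228 CPM at 0 µM. Of 5 tested KRT8 pseudogenes none passed at 100 µM against 0 µM, with log2 changes from -0.81 to 0.15 (edgeR adjusted p from 0.13 to 0.868). The hair keratin pseudogene KRT87P had 2.86 ± 0.484 CPM at 100 µM and 3.49 ± 0.618 CPM at 0 µM and did not pass either (edgeR adjusted p = 0.136).

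Genes that work with keratins were followed in lists drawn up beside the family. Of 19 desmosome and plakin genes, whose proteins fix keratin filaments at cell contacts, 12 were tested at 100 µM against 0 µM, 5 fell and 1 rose, and their median log2 change was -0.05. Of all genes 12.9% fell and 14.4% rose in that comparison, against which the counts of this and the next lists are to be read. JUP, which encodes plakoglobin, a plaque protein of desmosomes, had 412 ± 9.81 CPM at 100 µM and 668 ± 39.8 CPM at 0 µM (SD, n = 3), a 1.62-fold fall (edgeR adjusted p = 3.06e-13). PERP, a desmosomal membrane protein, fell 1.26-fold to 215 ± 6.99 CPM at 100 µM, against 271 ± 8.15 CPM at 0 µM, and PPL, which encodes periplakin, fell by 0.24 on the log2 scale. DSP, which encodes desmoplakin, the direct anchor of keratin filaments, was the 1 that rose, by 0.19. Against 0.001 to 1 µM DSP was lower instead, by 0.09 on the log2 scale (edgeR adjusted p = 0.0312), and 8 of the 12 fell, where 16.5% of all genes did, while 0 rose (0 also at an unadjusted p under 0.05 by edgeR and by DESeq2). Of the 5 falls against 0 µM, those of JUP, PERP and PPL held in all 18 alternatives. With untreated replicate 1 alone the median log2 change of the list was -0.02.

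Of 7 hemidesmosome genes 5 were tested, 3 fell and 0 rose (0 also at an unadjusted p under 0.05 by edgeR and by DESeq2), with a median log2 change of -0.18, where 12.9% of all genes fell, and all 3 falls held in all 18 alternatives. ITGB4, the integrin chain that binds keratins through plectin, had 3.19 ± 0.893 CPM at 100 µM and 6.84 ± 0.157 CPM at 0 µM (SD, n = 3), a 2.18-fold fall (edgeR adjusted p = 4.17e-09). LAMB3, a laminin chain of the basement membrane, fell by 0.33 and CD151, a tetraspanin partner of integrins, by 0.18 on the log2 scale.

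Of 9 other intermediate filament genes tested at 100 µM against 0 µM, 3 rose (LMNB1, LMNB2 and SYNM), 1 fell (BFSP1, a lens filament gene, by 0.43 on the log2 scale), and the median was 0.04, where 14.4% of all genes rose and 12.9% fell. Against 0.001 to 1 µM the balance was the other way, with 1 rise (LMNB2) and 4 falls (BFSP1, LMNA, NES and DES), where 16.6% of all genes rose and 16.5% fell. LMNB1 and LMNB2, which encode nuclear lamins, rose by 0.21 and 0.15, and SYNM, which encodes synemin, by 0.20. None of these 3 rises held with untreated replicate 1 alone (edgeR adjusted p = 0.0502, 0.0813 and 0.25), and the fall of BFSP1 did. VIM, the mesenchymal filament gene, was expressed beside the keratins at a mean of 312 CPM over the 21 libraries and LMNA at 474 CPM.

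Of 20 tested genes whose products bind or modify keratins, 5 rose and 4 fell at 100 µM against 0 µM, with a median of 0.05 log2 units, where 14.4% of all genes rose and 12.9% fell. Against 0.001 to 1 µM 6 rose and 7 fell, where 16.6% of all genes rose and 16.5% fell. TRADD, a death receptor adaptor that binds KRT18, fell by 0.21 on the log2 scale. YWHAG, a 14-3-3 protein, and CSNK1A1, casein kinase 1 alpha, each rose by 0.24. The rises of YWHAG and CSNK1A1 held in all 18 alternatives, whereas TRADD lost its call in 6, among them those without untreated replicate 3, without replicate 3 at 100 µM and with untreated replicate 1 alone (edgeR adjusted p = 0.163). With untreated replicate 1 alone the median log2 change of the list was -0.01. With upper-quartile scaling the list had 2 rises and 5 falls. Over all 16699 genes 4534 were then called in either direction, against 4558 in the main fit.

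Of 20 tested transcription factors of epithelial genes, 6 rose and 5 fell at 100 µM against 0 µM, with a median of 0.06 log2 units, where 14.4% of all genes rose and 12.9% fell. Against 0.001 to 1 µM 5 rose and 7 fell, where 16.6% of all genes rose and 16.5% fell. ELF3, an epithelial ETS factor, had 30.1 ± 1.07 CPM at 100 µM and 56.7 ± 1.01 CPM at 0 µM (SD, n = 3), a 1.89-fold fall (edgeR adjusted p = 5.81e-17), and the related EHF fell 3.87-fold to 0.418 ± 0.0615 CPM, against 1.62 ± 0.165 CPM at 0 µM. JUN, a subunit of AP-1, had 29.6 ± 1.90 CPM at 100 µM and 17.7 ± 0.222 CPM at 0 µM, a 1.68-fold rise, and KLF4, a Krüppel-like factor of epithelial differentiation, had 12.6 ± 0.562 CPM at 100 µM and 6.75 ± 0.647 CPM at 0 µM, a 1.87-fold rise. Each of these 4 held in all 18 alternatives. Whether any of them acts on the keratin genes was not tested.

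**Figure D5:**
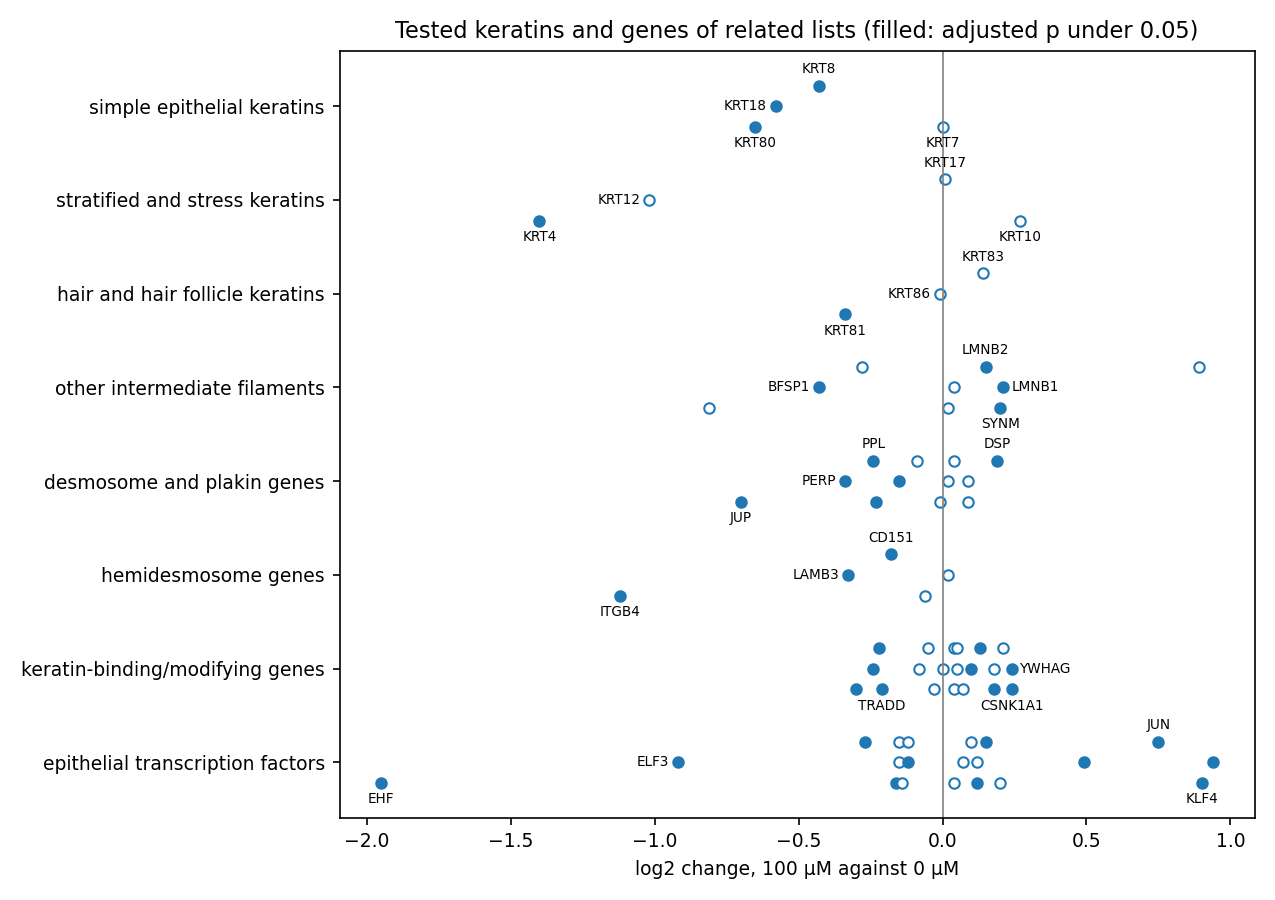
Log2 change at 100 µM against 0 µM of the tested keratins by class and of 5 lists of related genes, 1 point per gene, filled where the edgeR adjusted p is under 0.05 (the vertical position within a list has no meaning). KRT8, KRT18 and KRT80 lie left of 0 together with JUP (-0.70) and ITGB4 (-1.12), while KRT7 and KRT17 lie at 0.00 and 0.01.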

How the data were processed

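Whole-number counts per gene were deposited by the authors for each library and used as deposited. FPKM, also deposited by the authors, were used to compare genes per length. The submitters' processing notes name HISAT2, DESeq2 and GRCh38, with no version; which tool counted reads, and with what strand setting, is not given in the sources used here. Groups follow the dose in the labels. The members and lists were chosen with earlier results of these data known.

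Counts were fitted in R 4.3.3 with edgeR 4.0.16 (filterByExpr, TMM, robust quasi-likelihood F test, all 21 libraries, 14 residual degrees of freedom). P-values are two-sided except over 7 groups, adjusted by Benjamini-Hochberg over all tested genes, threshold 0.05. They measure the spread between these replicates. Every tested keratin is named. Of other lists, up to 4 passing genes with the smallest p at 100 µM are named. One gene that this rule would name is not reported here. Alternatives used limma 3.58.1 on log2(FPKM + 1) or + 0.1, DESeq2 1.42.0, other scalings, filters and fits. Using untreated replicate 1 alone and the share beyond counted genes as a covariate were chosen after seeing the data. Scripts were tested on simulated data. PCR reads are not independent molecules. The replicate numbers did not pair the libraries: deviations from group means of libraries with the same number correlated between -0.139 and 0.127.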

Additional observations from a re-analysis of the deposited data

How the results depend on the processing

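At 100 µM against 0 µM the count of 5 keratins was 5 with each library left out. With untreated replicate 1 alone the calls of KRT4 and KRT81 ended, with log2 changes of -0.92 and -0.27. Calls over all genes also became fewer there. The counts of 1, 2, 2 and 3 at 0.001, 0.01, 0.1 and 1 µM became 0 at each dose with untreated replicate 1 alone and with the share beyond counted genes as a covariate, where calls over all genes also became fewer (978 to 302 and 38 at 0.01 µM). The count at 0.001 µM was 0 at an adjusted p under 0.01, in a fit of the 2 groups alone and with limma on either pseudocount, and 2 with DESeq2. At 10 µM the 2 became 1 with no filter, at an adjusted p under 0.01, in a fit of the 2 groups alone, with untreated replicate 1 alone (KRT18), with the covariate and with limma on either pseudocount. Against 0.001 to 1 µM, the 4 at 10 µM became 2 at an adjusted p under 0.01 and with limma at pseudocount 0.1. The 6 slopes became 3 at an adjusted p under 0.01 and 3 over 0.001 to 10 µM, where the 3555 calls over all genes became 1940 and 432. Leaving out 1 library gave 0 to 3, 1 to 3, 2 to 4, 1 to 4 and 1 to 2 keratins at 0.001, 0.01, 0.1, 1 and 10 µM, 2 to 5 at 10 µM against 0.001 to 1 µM, and 3 to 7 slopes. The 3 at 0.001 µM and the 4 at 0.1 µM came without untreated replicate 1, the 1 at 1 µM without untreated replicate 3, the 2 at 10 µM against 0.001 to 1 µM without replicate 1 at 10 µM, and the 3 slopes without replicate 1 at 100 µM. With 1 untreated library the spread comes from the other groups, so that a call that ends there is not evidence of no change. The same holds for the covariate, because the share differs between the untreated and the low-dose groups. The cause of these differences was not tested.

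With the replicate number as a block (replicate block), 1, 3, 3, 3, 2 and 5 keratins passed at 0.001 to 100 µM against 0 µM, 6 slopes passed, and no count moved by over 1.5 times. The numbers do not pair the libraries.

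Of keratins with no call at 100 µM against 0 µM, 4 changed sign. KRT7 had a log2 change of -0.03 with upper-quartile scaling, -0.0031 with a filter of 1 CPM in 3 libraries, -0.03 with untreated replicate 1 alone, -0.02 with the covariate and -0.02 to 0.02 with a library left out. KRT17 had -0.02 with upper-quartile scaling, -0.08 with untreated replicate 1 alone, -0.09 with the covariate and -0.02 to 0.06 with a library left out. KRT86 had 0.00096 with no filter and -0.09 to 0.06 with a library left out. KRT83 had -0.16 with untreated replicate 1 alone, -0.22 with the covariate and -0.20 to 0.31 with a library left out. Depth limits KRT4, KRT83 and KRT12 most.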
